A study of Mus musculus with 11 samples.

Results

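The miR-18, miR-19 and miR-25/92 families are represented on the array by mmu-miR-18, mmu-miR-19a, mmu-miR-19b, mmu-miR-92, mmu-miR-25, mmu-miR-32 and mmu-miR-363, which are 7 of its 334 mouse miRNAs and 28 of its 1336 mouse spots. They were chosen by name and not by their signal, and are written without the species prefix from here on. All 7 passed the filter on dim probes and were tested, although miR-363 passed it on only 3 of the 8 gland arrays.

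Mammalian genomes hold a small set of related miRNA clusters whose best known unit, miR-17-92, is transcribed as 1 precursor and cut into miR-17, miR-18, miR-19, miR-20 and miR-92 molecules. Its paralogs are the X-linked miR-106a-363 cluster and the miR-106b-25 cluster within the gene of the replication factor Mcm7. Transcription of miR-17-92 is driven by Myc and E2F factors, and the cluster is known as an oncogene in lymphoma. miR-18 is known to repress the estrogen receptor and Ctgf, and the miR-25/92 family the proapoptotic protein Bim.

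A miRNA finds its targets mainly through its seed, bases 2 to 8. The 7 members carry 3 seeds, and the mature sequences below, from RefSeq (mouse build GRCm38.p6), are shown with the seed in capitals because they show which members could be read as a family and which probes resemble each other. miR-18 alone has the first seed, both miR-19 members have the second, and miR-92, miR-25, miR-32 and miR-363 share the third.
miR-18: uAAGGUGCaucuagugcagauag
miR-19a: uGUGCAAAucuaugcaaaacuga
miR-19b: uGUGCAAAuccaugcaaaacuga
miR-92: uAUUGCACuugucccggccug
miR-25: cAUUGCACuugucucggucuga
miR-32: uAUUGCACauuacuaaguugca
miR-363: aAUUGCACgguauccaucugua

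On the plus strand of chromosome 14 the build places miR-18 at chr14:115043867-115043889, miR-19a at chr14:115044048-115044070, a first copy of miR-19b at chr14:115044358-115044380 and a first copy of miR-92 at chr14:115044476-115044496. The last of these lies within the span of Mir17hg, the host gene of the cluster. The X chromosome holds, on the minus strand, second copies of miR-19b at chrX:52741991-52742013 and of miR-92 at chrX:52741854-52741874, together with miR-363 at chrX:52741697-52741718. miR-25 lies at chr5:138165332-138165353 on the minus strand, within the span of Mcm7. miR-32 stands outside these clusters at chr4:56895272-56895293 on the minus strand, within the span of Tmem245. The mature copies of miR-19b are identical in sequence, as are those of miR-92, so a probe cannot tell chromosome 14 from chromosome X.

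Each 60-base probe holds the complement of its mature miRNA followed by a linker. The probes matched all 23 bases of miR-19a and miR-19b, all 21 of miR-92 and all 22 of miR-25. They matched 22 of 23 bases of miR-18, 21 of 22 of miR-32 and 21 of 22 of miR-363. The miR-19a and miR-19b probes differed from each other by 1 base edit and those of miR-92 and miR-25 by 4, each being the nearest probe to the other on the array. The nearest probes to the remaining members were miR-20b at 5 edits from miR-18, miR-367 at 7 from miR-32 and miR-25 at 8 from miR-363. The signal of miR-19a and miR-19b may therefore be shared between them.

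The arrays covered mammary glands of normal pregnant females of 3 strains late in pregnancy, 2 of FVB, 3 of Balb/C and 3 of FVB129B6, and 3 primary mammary tumors of C3(1)/Tag females of the FVB strain. C3(1)/Tag mice carry the SV40 transforming sequences under the C3(1) 5' flanking region of a rat prostate gene, which is active in mammary ductal cells, and the tumors were compared with whole glands and not with isolated ductal cells. The strain name FVB129B6 is given as the labels write it. Titles of Balb/C replicates 2 and 3 could name 2 glands of 1 mouse, and where samples of a group are not separate animals the p-values measure only the spread between these samples. All glands lay on 1 slide, with FVB in a column of its own, and the tumors on another slide read with another version of the scanner program, so tumor and slide cannot be told apart. A level is the log2 processed green intensity of a miRNA, averaged over its 4 spots, minus the median of its array, so that 0 is the array median. The scanner program marks each spot that stands well above background, and a miRNA was taken as such on an array if 50% or more of its spots were marked. On the gland arrays 209 to 262 of the 334 miRNAs met this, but only 38, 15 and 64 did on the tumor arrays, whose median spots read 170, 140 and 125. On a tumor array a level near 0 is therefore a background reading. The number of arrays limits the precision, and in bulk tissue fewer cells of a type and less RNA per cell cannot be told apart.

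In the glands 6 of the 7 members were well above background on all 8 arrays, as were 204 of the 334 miRNAs. The spots of miR-19b were intense, with array medians of 40950 and 46400 on the FVB arrays and 103500 to 130000 on the others. Those of miR-19a had array medians of 8250 to 27850, those of miR-25 of 9200 to 17300, those of miR-18 of 2650 to 9200 and those of miR-92 of 3610 to 7680. For these 5 members the level varied little between the 8 glands, with SDs of 0.18 for miR-19a, 0.20 for miR-19b, 0.26 for miR-18, 0.29 for miR-92 and 0.31 for miR-25 (log2, n = 8). The 4 spots of an array also agreed closely, with a median SD between spots of 0.03 to 0.06. miR-32 was dim, with array medians of 58.0 to 315, and miR-363 was dimmer still, with 25.2 to 40.2 on all gland arrays but 1.

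miR-363, which belongs to the X-linked cluster, stood apart on a single gland array. Its 4 spots on Balb/C replicate 2 read 197 to 259 and were all well above background, whereas no spot exceeded 88.1 on any other gland array. Its level was -1.12 there against -4.27 and -4.16 on Balb/C replicates 1 and 3, -4.52, -4.34 and -4.04 in FVB129B6 and -2.60 and -2.81 in FVB. Elsewhere it was well above background only on FVB replicate 1 and FVB129B6 replicate 2, each with 2 of 4 spots. The same Balb/C array had the highest levels of miR-20b, another member of the X-linked cluster, at 2.07 against 0.59 to 1.51 on the other gland arrays. It also had the highest mean level of the blood and lymphoid list, at 5.05 against 2.67 to 4.21. Its mean level of the epithelial list was the lowest, at 4.99 against 5.51 to 6.55 on the other gland arrays. The part of blood, lymphoid or epithelial cells in the miR-363 reading was not tested.

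**Figure D1:**
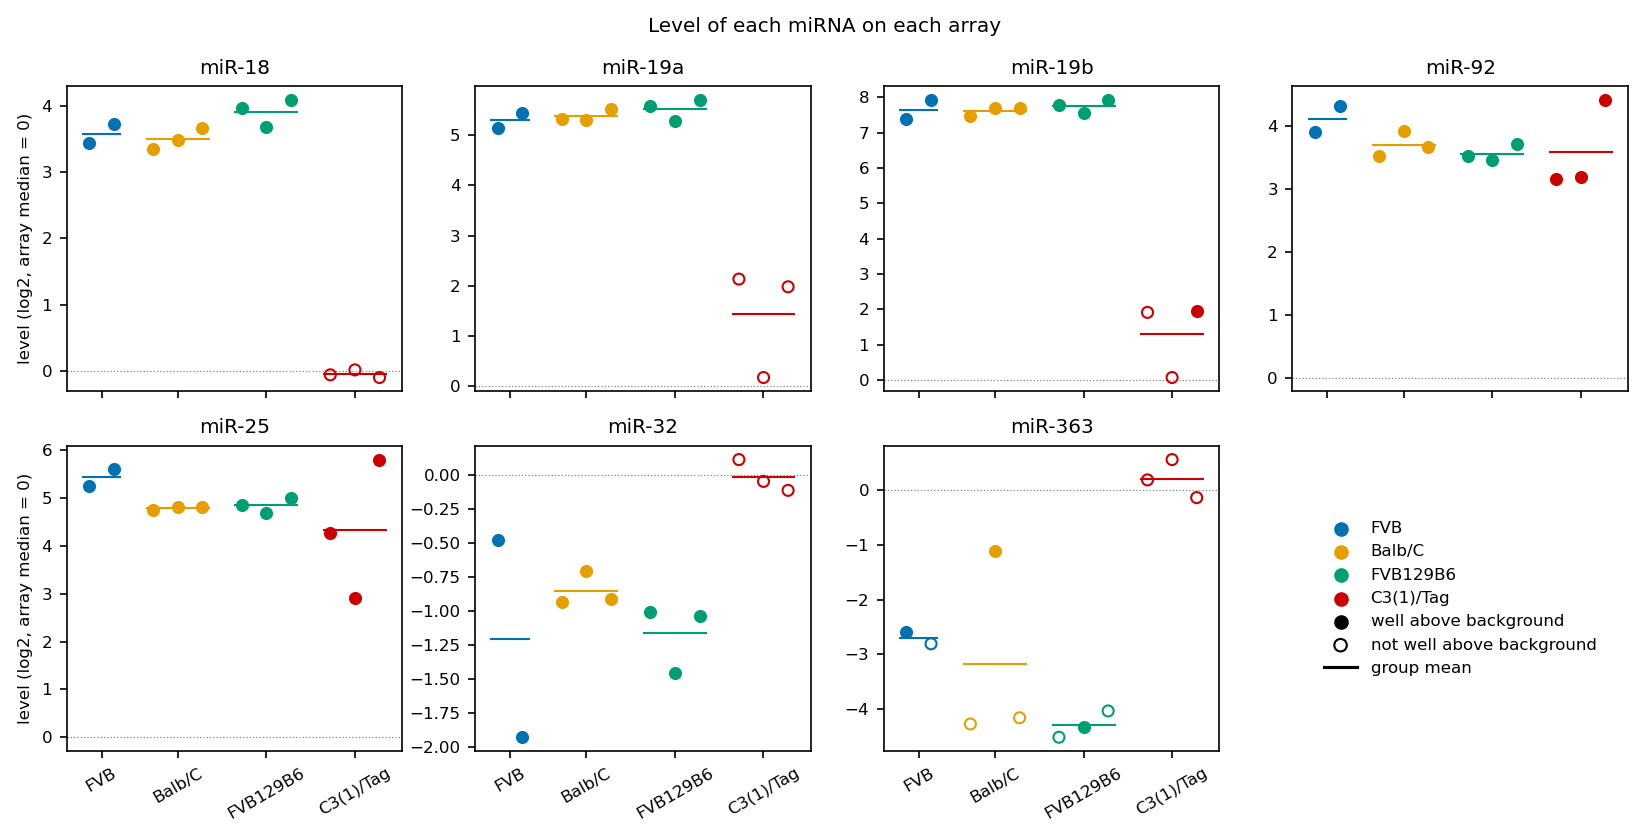
Level of each member on each array (log2, array median = 0), with filled points well above background, open points not, and a line at each group mean. miR-18, miR-19a and miR-19b lie lower on every tumor array than on any gland array, miR-92 and miR-25 stay well above background on all 3 tumor arrays, and miR-32 and miR-363 are background readings in the tumors.

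The first question was whether strain background moved these miRNAs. limma's moderated F-test over the 3 strains, with Benjamini-Hochberg adjustment over 261 miRNAs, called 1 of the 7 members, miR-25 (adjusted p = 0.0421), where 46% of all miRNAs tested were called. The F-test call was lost without any 1 of 6 of the 8 arrays, and held without FVB replicate 1 or FVB129B6 replicate 3. Leaving out an FVB array leaves 1 in that strain, so the spread then comes from the other strains alone. miR-25 stood at 5.25 and 5.61 in FVB, at 4.75, 4.82 and 4.80 in Balb/C and at 4.85, 4.69 and 5.01 in FVB129B6. Both FVB glands lay above all 6 glands of the other strains. The difference from FVB was -0.64 ± 0.18 (SE) in Balb/C (adjusted p = 0.0257 in limma) and -0.58 ± 0.18 in FVB129B6 (adjusted p = 0.0345). In the same contrasts 37.9% and 39.5% of all miRNAs were called. In Balb/C 32.2% were lower and 5.75% higher, in FVB129B6 31.4% were lower and 8.05% higher, and the median difference over the 261 was -0.48 and -0.39. Relative to that median, miR-25 differed by -0.16 and -0.19.

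miR-92, with the same seed as miR-25, stood at 3.89 and 4.31 in FVB, 3.52, 3.91 and 3.65 in Balb/C and 3.51, 3.45 and 3.71 in FVB129B6. Balb/C replicate 2 overlapped the FVB glands, and no FVB129B6 gland did. Its differences from FVB missed the threshold, at -0.40 (95% interval -0.88 to 0.07, adjusted p = 0.149 in limma) and -0.54 (-1.02 to -0.07, adjusted p = 0.0645).

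miR-18 stood at 3.44 and 3.72 in FVB, 3.35, 3.48 and 3.66 in Balb/C and 3.97, 3.68 and 4.09 in FVB129B6. Every FVB129B6 gland lay above every Balb/C gland, the difference Balb/C minus FVB129B6 being -0.41 (95% interval -0.82 to -0.00), which did not pass the adjustment (limma adjusted p = 0.233). That contrast called 3.45% of all miRNAs, 1.15% as higher and 2.3% as lower in Balb/C, and none of the 7 members, while by an unadjusted p under 0.05 it held 55 of the 261 and 1 member, miR-18. Against FVB, miR-18 differed by -0.08 (-0.54 to 0.38) in Balb/C and by 0.33 (-0.13 to 0.79) in FVB129B6.

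miR-19a stood at 5.14 and 5.44 in FVB, 5.32, 5.31 and 5.52 in Balb/C and 5.59, 5.28 and 5.70 in FVB129B6. miR-19b stood at 7.39 and 7.93 in FVB, 7.47, 7.70 and 7.71 in Balb/C and 7.80, 7.57 and 7.93 in FVB129B6. The strains overlapped for both. The 95% intervals against FVB ran from -0.36 to 0.55 and from -0.22 to 0.69 for miR-19a, and from -0.53 to 0.47 and from -0.40 to 0.61 for miR-19b, in Balb/C and FVB129B6 respectively.

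miR-32, the member outside the clusters, read -0.48 and -1.93 on the FVB arrays, and this pair spanned all of its other gland levels. Its intervals against FVB were correspondingly wide, from -0.56 to 1.26 in Balb/C and from -0.87 to 0.95 in FVB129B6. Leaving out either FVB array leaves 1, and the direction then turned with the array left out. Without FVB replicate 1 the differences from FVB were 1.08 and 0.76 in Balb/C and FVB129B6, and without FVB replicate 2 they were -0.37 and -0.68. The intervals of miR-363 ran from -2.49 to 1.53 and from -3.61 to 0.42. In FVB129B6 it was called lower than in FVB by 2 alternatives. The difference was -1.59 (limma adjusted p = 0.0272) with Balb/C replicates 2 and 3 averaged and -0.75 (adjusted p = 0.025) with normexp. That averaging merges the bright Balb/C array with a dim one. Unscaled the difference was -0.18 (limma adjusted p = 0.858). Median spots read 40.15 and 25.65 in FVB and 25.15, 35.35 and 30.6 in FVB129B6, with 1 array of each strain well above background. These calls thus rest mostly on readings not well above background and on the scaling.

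The strain result for miR-25 rested on the scaling of the arrays. The median spot read 245.5 and 188.5 in FVB and 508 to 671.5 in the other strains, and unscaled miR-25 was higher than in FVB, by 0.71 in Balb/C and 0.83 in FVB129B6. With each array scaled to the median over those miRNAs that every gland array detected, its differences were -0.19 and -0.06 and neither was called (limma adjusted p = 0.277 and 0.727). That scaling moved the median of all miRNAs to -0.03 and 0.13 and called miR-18, miR-19a and miR-19b higher in FVB129B6 than in FVB, by 0.86, 0.75 and 0.63 (adjusted p = 0.0064, 0.00674 and 0.0183). It also called miR-19a higher in Balb/C by 0.54 (adjusted p = 0.0207). The 75th percentile called miR-18 and miR-19a higher in FVB129B6 by 0.70 and 0.60 (adjusted p = 0.0275 and 0.0442), and quantile normalization called miR-18, miR-19a and miR-19b higher there by 0.77, 0.58 and 0.75 (adjusted p = 0.0115, 0.0303 and 0.0162). Normexp called all 3 higher in both strains, by 1.15, 0.88 and 0.81 in FVB129B6 and by 0.83, 0.86 and 0.70 in Balb/C, as did the unscaled values. The array median and the ratio of green to red called none of the 3 in either strain. Subtracting another constant from an array shifts all members alike. Under the array median miR-18, miR-19a and miR-19b lay 0.72, 0.62 and 0.50 above the median difference of all miRNAs between FVB129B6 and FVB, and miR-25 and miR-92 lay 0.19 and 0.15 below it.

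The miR-25 calls also depended on single arrays. With Balb/C replicates 2 and 3, which may be 1 mouse, averaged into 1 sample, the Balb/C call was lost (-0.65, adjusted p = 0.052), as was that of the F-test, and the FVB129B6 call held (-0.58, adjusted p = 0.0458). Against Balb/C the call was lost without any 1 of the Balb/C replicates (-0.66 to -0.62, limma adjusted p = 0.0521 to 0.0758) and without FVB129B6 replicate 1 (-0.64, adjusted p = 0.0549). Without FVB replicate 2, which leaves 1 FVB array, the difference was -0.46. Against FVB129B6 the call was lost without FVB129B6 replicate 1 or 2 (-0.58 and -0.50, limma adjusted p = 0.0989 and 0.0942) and without Balb/C replicate 1 or 3 (-0.58 for each, adjusted p = 0.0606 and 0.0531). Without FVB replicate 2 the difference was -0.40. With the replicate number as a block it was -0.62 with an adjusted p of 0.0513 in FVB129B6.

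Skeletal muscle miRNAs differed between the same strains by far more than any member. The array carried 4 of the 5 muscle miRNAs listed, and all 4 were called higher than in FVB, with a median difference of 4.97 in Balb/C and 3.83 in FVB129B6. Of all miRNAs tested, 5.75% were called higher in Balb/C and 8.05% in FVB129B6. Their mean level was 0.68 and 2.90 on the FVB arrays, 6.23 to 7.10 in Balb/C and 5.69 to 5.88 in FVB129B6, and miR-133b was the brightest of them in every gland. Of the blood and lymphoid list, 1 of 7 miRNAs was called lower than in FVB in Balb/C and 3 were in FVB129B6 (medians -0.27 and -1.66), and of the epithelial list 2 of 7 were lower in Balb/C and none was called in FVB129B6 (medians -0.81 and -0.17). Among all miRNAs tested 32.2% were called lower in Balb/C and 31.4% in FVB129B6, so the counts of these 2 lists say little by themselves. The part of muscle or blood, of the intensity gap or of the FVB column on the slide in the strain values of the members was not tested.

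**Figure D2:**
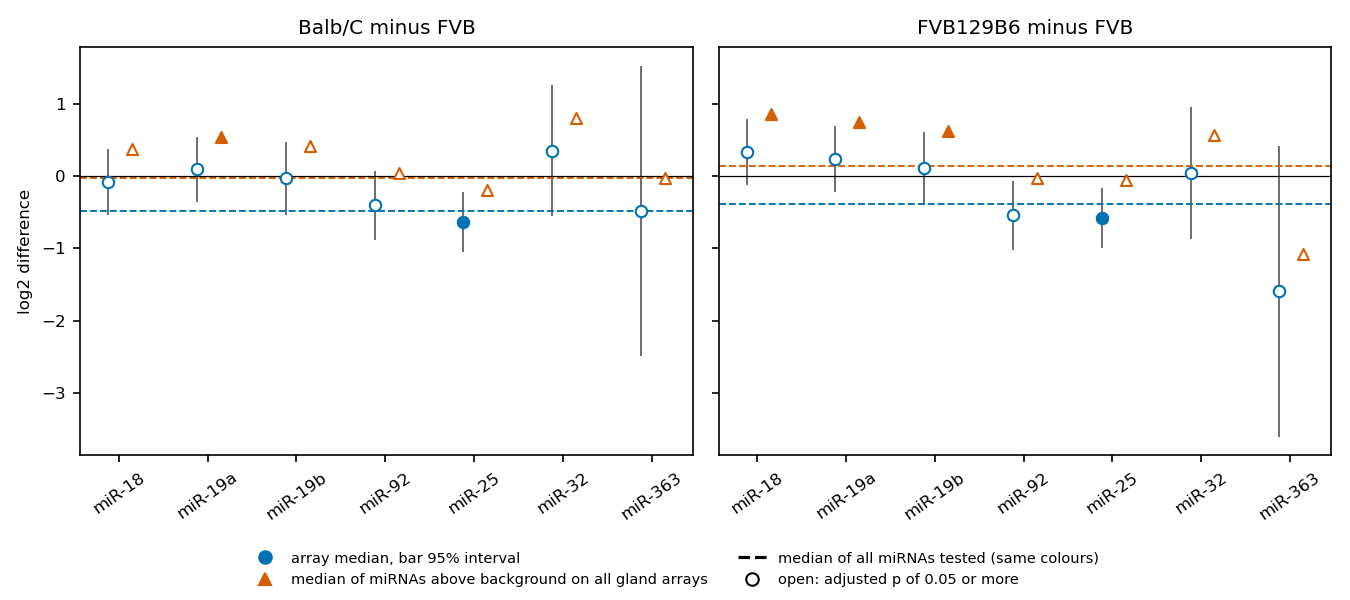
Log2 difference of each member from FVB in Balb/C (left) and FVB129B6 (right), scaled to the array median (circles, 95% interval) or to the median over the miRNAs detected in every gland (triangles), with dashed lines at the median of all 261 miRNAs in the matching colour and filled symbols where limma's adjusted p was below 0.05. miR-25 is called under the first scaling only, and miR-18, miR-19a and miR-19b are called in FVB129B6, and miR-19a in Balb/C, under the second only.

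By the array median the members fell into unlike patterns across the 8 glands. These are described here by Pearson's r over 8 arrays that share a slide and differ in strain and intensity. miR-18, miR-19a and miR-19b varied together, with r of 0.79 to 0.87, and the miRNAs most like them came from their own cluster except miR-106a, of the X-linked cluster, and miR-699, of none of the 3. The 3 miRNAs most like miR-18 were miR-20a (r = 0.94), miR-17-5p (0.93) and miR-106a (0.89). miR-19b was most like miR-17-5p (0.92), miR-20a (0.85) and miR-19a (0.84), and miR-19a was most like miR-699 (0.89), miR-20a (0.88) and miR-18 (0.87). Some of these probes resemble each other, at 1 edit between miR-19a and miR-19b and 6 between miR-18 and miR-20a or miR-106a. The other pairs named lie 10 to 16 edits apart. The part of shared signal in these r was not tested.

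By the array median the pattern of miR-92 differed from that of the chromosome 14 miRNAs made from the same precursor. By the array median its r was -0.10 with miR-18, -0.11 with miR-19a and 0.35 with miR-19b, against 0.89 with miR-25, whose probe is the nearest to its own. All of these rested on the scaling. With the 75th percentile the r of miR-92 was -0.39, -0.20 and 0.04 with the first 3 and 0.47 with miR-25, and after quantile normalization 0.19 with miR-25. With normexp the values were 0.51, 0.64 and 0.64 with the first 3 and 0.83 with miR-25. Without normalization they were 0.89, 0.94, 0.96 and 0.95, so that miR-92 then varied with all of them. By the array median the 3 miRNAs most like miR-92 were miR-500 (0.96), miR-542-5p (0.95) and miR-15b (0.95). miR-25 was most like miR-484 (0.98), miR-93 (0.98) and miR-99b (0.98), and its r with miR-106b, which with miR-93 completes its cluster, was 0.92. With the 75th percentile the r with miR-93 was 0.91 and that with miR-106b 0.40, while those among miR-18, miR-19a and miR-19b were 0.88 to 0.93.

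The dim members had other neighbours. miR-363 was most like miR-150 (0.97), miR-16 (0.94) and miR-342 (0.92) over 8 arrays of which 1, Balb/C replicate 2, was bright. miR-32 was most like miR-374-5p (0.85), miR-326 (0.85) and miR-29c (0.85).

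**Figure D3:**
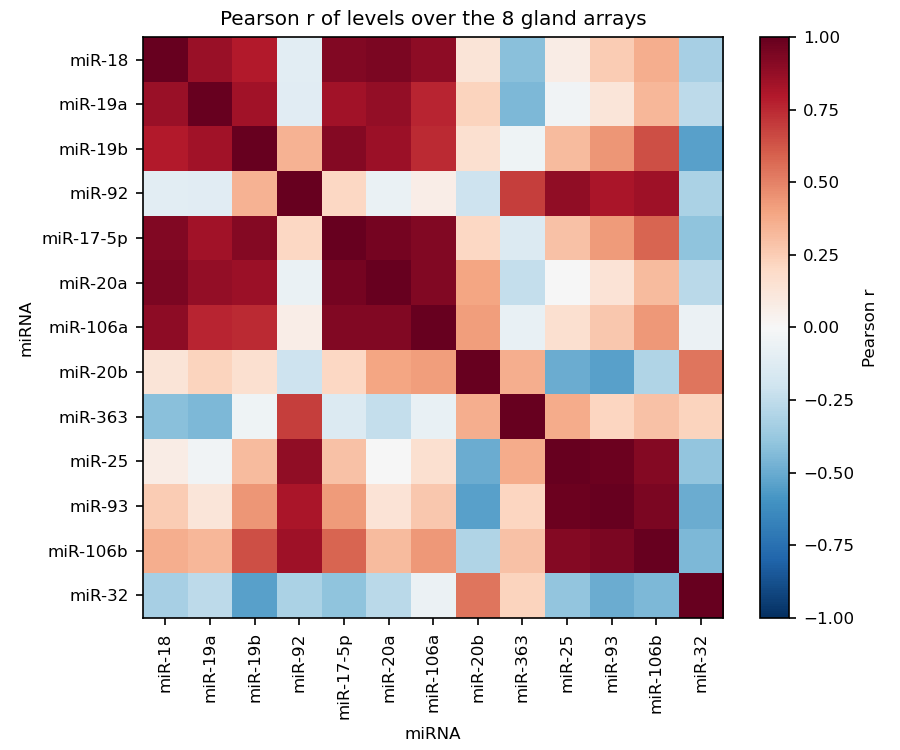
Pearson r of levels scaled to the array median over the 8 gland arrays for the 7 members and the 6 other miRNAs of their clusters, from -1 (blue) to 1 (red). miR-18 and both miR-19 members form a block with miR-17-5p, miR-20a and miR-106a, while miR-92 joins miR-25, miR-93 and miR-106b. That link is weaker with the 75th percentile (r of 0.47, 0.24 and 0.38). Without normalization the r of miR-92 with miR-18, miR-19a and miR-19b is 0.89, 0.94 and 0.96.

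The second comparison set the C3(1)/Tag tumors against the glands. By the array median miR-18, miR-19a and miR-19b were lower in tumors on every array, to or near background, while miR-92 and miR-25 were among the few miRNAs that remained well above background on all 3 tumor arrays. limma called 5 of the 7 members, 3 lower and 2 higher, where 90.4% of the 261 miRNAs were called, 52.5% lower and 37.9% higher. Against FVB glands alone, the strain of the tumors, it called the same numbers, where 88.1% of all miRNAs were called, 52.5% lower and 35.6% higher. At such shares a call by itself says little about the members.

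miR-18 read -0.06, 0.02 and -0.10 on the 3 tumor arrays, against 3.35 to 4.09 in the glands. None of its 12 tumor spots was well above background, and they read 89.4 to 169, near the array medians. The difference from the mean of the 3 strains was -3.71 and from FVB glands -3.62. miR-18 passed the filter through the glands alone, so both calls set a gland signal against tumor background readings. Because the tumor side was not well above background, the fold is a bound. By the array median it was at least 3.65-fold lower than in glands and at least 3.44-fold lower than in FVB glands. Under other scalings given below no bound was left. For the bound, each tumor array entered with the lowest level that any miRNA reached on it while well above background, or with its own level where that was higher.

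miR-19a read 2.13, 0.17 and 1.98 on the tumor arrays, against 5.14 to 5.70 in the glands. Tumor replicate 2 was at background and the others had 1 of 4 spots well above it each. The difference was -3.97 from glands and -3.86 from FVB glands. By the array median the bounds were at least 9.96-fold and at least 9.25-fold lower, and they too moved with the scaling. miR-19a also passed the filter through the glands alone, so both calls set a gland signal against tumor readings not well above background.

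miR-19b read 1.92, 0.07 and 1.94 on the tumor arrays, against 7.39 to 7.93 in the glands. It was well above background on tumor replicate 3 only, with 3 of 4 spots. The difference of -6.37, called lower by limma, thus rests on 1 measured tumor array of 3 and is no exact value. With any lower level raised to the lowest one that stood well above background on its array, the difference was -5.65. In intensity, the tumor spots read 139 to 1160 and the gland spots 40400 to 138000, without overlap. In the glands its level lay 2.15 to 2.48 above that of miR-19a, and on each tumor array within 0.22 of it. In tumors miR-19a was well above background on 0 arrays and miR-19b on 1, so the gap between the 2 probes was not measured there.

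miR-92 read 3.15, 3.19 and 4.41 on the tumor arrays, against 3.45 to 4.31 in the glands. Tumor replicates 1 and 2 lay below all glands and replicate 3 above them. The difference was -0.20 (95% interval -0.80 to 0.39, adjusted p = 0.472 in limma) from glands and -0.52 (-1.32 to 0.28, adjusted p = 0.19) from FVB glands. Its tumor spots read 864 to 3380.

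miR-25 read 4.27, 2.92 and 5.80 on the tumor arrays, against 4.69 to 5.61 in the glands, so that again replicates 1 and 2 lay below all glands and replicate 3 above them. The difference was -0.69 (-1.71 to 0.33, adjusted p = 0.167 in limma) from glands and -1.10 (-2.47 to 0.27, adjusted p = 0.113) from FVB glands. Its SD was 1.44 between tumors and 0.31 between all glands. Without tumor replicate 3 both were called lower than in glands, miR-25 by -1.43 (adjusted p = 0.00133) and miR-92 by -0.62 (adjusted p = 0.0089). Without replicate 2 the differences were 0.01 and -0.01.

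Detection on the tumor arrays does not depend on the scaling between arrays. Of the 204 miRNAs detected in all glands, 15 (7.35%) were so on all 3 tumor arrays, 47 (23%) on 1 or 2 and 142 (69.6%) on none. Among the 6 members in that set these numbers were 2, 1 and 3. The 15 were let-7a, let-7b, let-7c, let-7d, miR-145, miR-205, miR-221, miR-674, miR-689, miR-690, miR-709, miR-720 and miR-762 beside miR-25 and miR-92. The first 27 bases of the probes hold the miRNA complement. Over them miR-92 and miR-25 have the highest GC content of the members, 59.3% and 51.9%, against 37% to 44.4% for the others. By the same measure the median was 51.9% for the 15 (44.4% to 81.5%) and 51.9% for the 47 (40.7% to 74.1%). It was 48.1% for the 142 (33.3% to 77.8%), and the part of GC content in the detection was not tested.

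The size and sign of the tumor differences moved with the scaling, since few miRNAs are measured on the tumor arrays. Scaled to the 75th percentile the median difference of all miRNAs went from -0.83 to 2.14. The differences then were -0.73 for miR-18, -0.99 for miR-19a and -3.40 for miR-19b, all still called lower, whereas miR-92 and miR-25 were called higher by 2.77 and 2.28. Unscaled, all 5 were called lower, by -5.21, -5.47, -7.88, -1.71 and -2.20 in the same order. After a normexp background correction they were again all lower, by -2.85, -4.23, -6.52, -2.15 and -2.93. Quantile normalization gave -3.31, -1.13 (adjusted p = 0.175), -3.53, 3.40 and 2.85. The ratio of green to red gave -0.59 for miR-18, 0.37 for miR-19a and -0.08 for miR-19b, the last 2 not called, -0.62 for miR-92 and 1.79 for miR-25. The direction of miR-92 and miR-25 in tumors is thus not settled by these arrays. The differences of miR-18, miR-19a and miR-19b were negative under every scaling of the green channel that was tried, and called in all except miR-19a after quantile normalization. Against FVB glands alone, the 75th percentile left miR-18 at -0.38 (adjusted p = 0.273) and miR-19a at -0.62 (adjusted p = 0.125), neither called, and miR-19b at -3.11. With that scaling the highest tumor levels of miR-18 (-0.33) and miR-19a (1.24) overlapped the FVB glands (-0.57 and -0.44 for miR-18, 1.13 and 1.29 for miR-19a). The median over the miRNAs detected on every array left miR-18 uncalled there too, at -0.66 (adjusted p = 0.116), quantile normalization left miR-19a at -0.81 (adjusted p = 0.486), and the ratio of green to red called none of the 3. Under the 75th percentile no bound was left for miR-18 against either reference, and that of miR-19a was at least 1.27-fold against all glands with none left against FVB glands. The median over the miRNAs detected on every array also left none for miR-18. For miR-19a it left at least 1.72-fold against all glands and 1.19-fold against FVB glands. Quantile normalization left no bound for either miRNA.

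**Figure D4:**
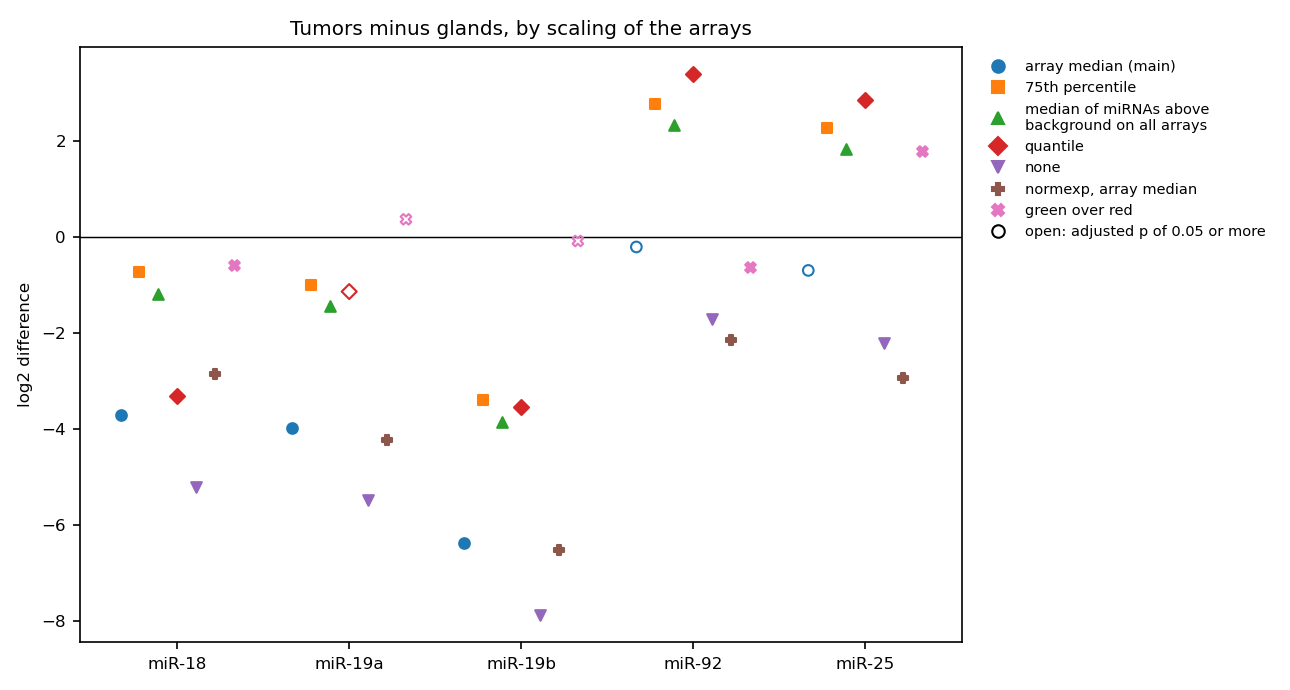
Log2 difference of tumors minus glands for the 5 members with strong gland signal, by scaling of the arrays, with filled symbols where limma's adjusted p was below 0.05. miR-19b is the lowest and miR-92 the highest under each scaling of the green channel, while miR-92 and miR-25 fall on either side of 0; the ratio of green to red is shown beside them.

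Differences between members on the same array need no scaling between arrays, and are given as a description chosen after the levels had been seen. miR-92 minus miR-18, both from the chromosome 14 cluster, was -0.46 to 0.59 on the gland arrays and 3.20, 3.17 and 4.51 on the tumor arrays. Within the glands this difference was 0.46 and 0.59 in FVB, 0.17, 0.43 and -0.01 in Balb/C and -0.46, -0.23 and -0.38 in FVB129B6, so that every FVB129B6 gland lay below every other gland. miR-92 minus miR-19b was -4.28 to -3.50 in the glands and 1.23, 3.11 and 2.47 in the tumors. miR-25 minus miR-106b, its neighbour within Mcm7, was -0.96 to -0.59 in the glands and 3.64, 2.97 and 4.97 in the tumors. miR-25 minus miR-93, of the same cluster, was -0.32 to -0.15 in the glands and 0.72, 0.27 and 1.52 in the tumors. Tumor and gland arrays did not overlap in any of these 4 chosen differences. How many pairs over all miRNAs would separate in this way was not counted. miR-25 minus miR-92, both well above background on every array, did overlap, at 0.91 to 1.36 in the glands and 1.12, -0.27 and 1.39 in the tumors. Tumor values of the 4 are limited by background in the pairs with miR-18 and miR-106b on all 3 tumor arrays. The same holds for the pair with miR-19b on replicates 1 and 2 and for that with miR-93 on replicate 2. All these values are differences of green intensity and do not show that a member stayed unchanged. By the ratio of green to red the tumor differences of miR-92, miR-18 and miR-19b were -0.62, -0.59 and -0.08, but in tumors red was well above background on no array for miR-18 and miR-19b and green on none and 1, so that these ratios bear little on the comparison.

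**Figure D5:**
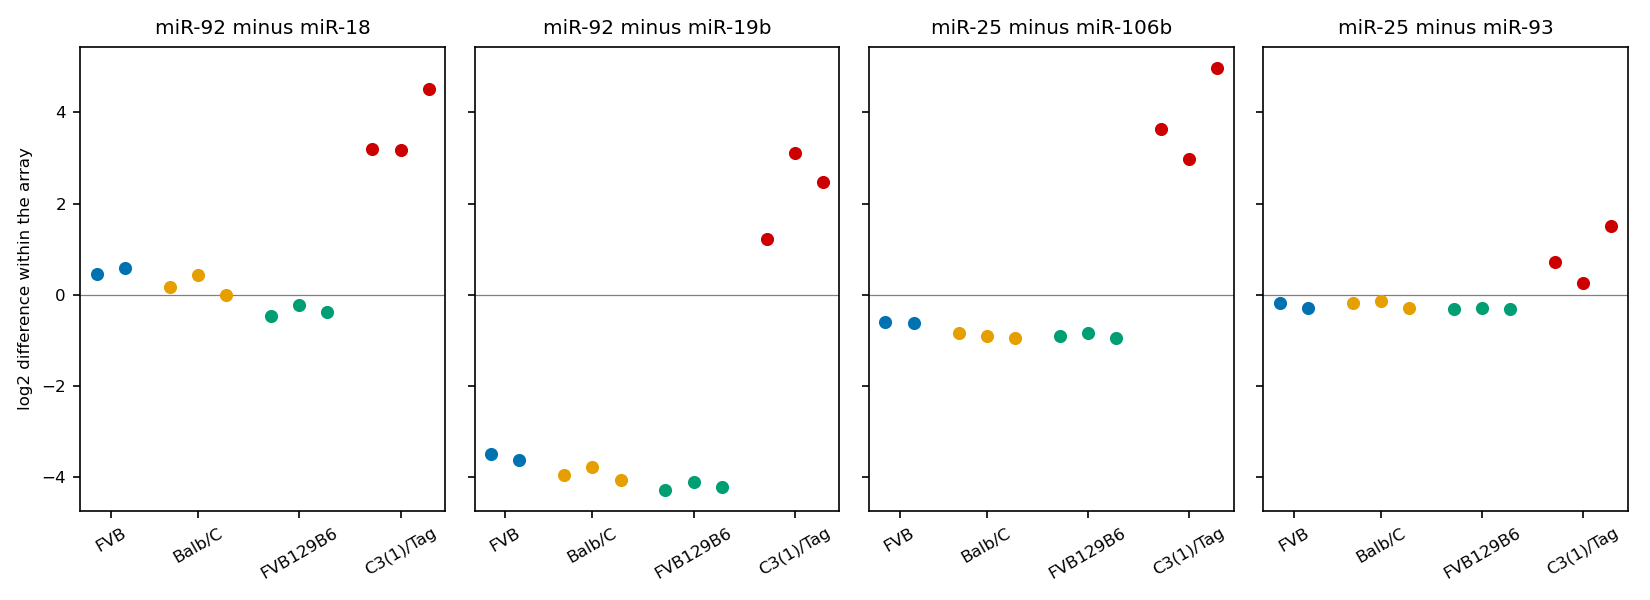
Difference in level between 2 miRNAs on the same array (log2), one panel per pair, with a point per array coloured by group. All 3 tumor arrays lie above all 8 gland arrays in each panel. The pairs were chosen after the levels had been seen, and the pair miR-25 minus miR-92 overlapped (tumors -0.27 to 1.39, glands 0.91 to 1.36).

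miR-32 and miR-363 were called higher in tumors, by 1.06 (limma adjusted p = 0.00325) and 3.60 (adjusted p = 0.000123) relative to the array median. No tumor array measured either above background. miR-32 read 0.11, -0.05 and -0.12 and miR-363 read 0.19, 0.56 and -0.14, near the array median, so no fold is given. In intensity the tumor spots of miR-32 read 108 to 220, against 218 to 342 in Balb/C and FVB129B6, 144 to 246 on FVB replicate 1 and 29.2 to 60.9 on FVB replicate 2. The tumor spots thus overlapped those of 1 FVB array and lay above those of the other. Both calls compare a tumor background with a dim gland signal and do not measure a higher level.

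The partners in the 3 clusters were fixed as a list of 8 names, 6 of which the array carried: miR-17-5p, miR-20a, miR-20b, miR-93, miR-106a and miR-106b, all with the related miR-17 seed. All 6 were well above background in every gland. By the array median all 6 were called lower in tumors, where 52.5% of all miRNAs were. Of the 6, 5 were well above background on no tumor array and passed the filter through the glands alone. Their calls, and the median difference of -4.75 against -0.83 for all miRNAs, thus rest on tumor background readings. With the 75th percentile 4 were lower and 2 higher, miR-93 and miR-20b, and the medians were -1.77 and 2.14. The only partner well above background on any tumor array was miR-93, on tumor replicates 1 and 3. It read 3.55, 2.65 and 4.28 against 4.93 to 5.89 in the glands. Its difference was -1.78 ± 0.29 (adjusted p = 0.000153 in limma), and turned to 1.20 with the 75th percentile and 2.06 after quantile normalization, so that its direction is not settled either. In Balb/C against FVB 1 of the 6 was called, miR-93 at -0.67 (adjusted p = 0.032), beside -0.64 for miR-25 of the same cluster, and in FVB129B6 none was called, with miR-93 at -0.51 (adjusted p = 0.0696). Of all miRNAs 37.9% and 39.5% were called in these contrasts.

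The tissue labels were checked with epithelial miRNAs. All 7 of that list were well above background in every gland, with miR-200a or miR-200b the brightest, but only 2, 1 and 4 of them on the tumor arrays. By the array median all 7 were called lower in tumors, where 52.5% of all miRNAs were, with a median difference of -4.26. With the 75th percentile 6 were (median -1.28), and after quantile normalization 4 were (median -2.03). On no tumor array were miR-141, miR-200b and miR-203 well above background, so their calls set a gland signal against tumor background readings. miR-200c and miR-429 were so on 1 tumor array each. Of the blood and lymphoid list 7 of 8 names were on the array and 5 were called lower in tumors (median -2.53), but with the 75th percentile 2 were lower and 2 higher (median 0.45), with 1, 0 and 1 well above background on the tumor arrays. All 4 muscle miRNAs were called lower than in glands (median -4.12) and 1 lower and 1 higher than in FVB glands, but with the 75th percentile 2 were lower and 1 higher than in glands (median -1.14), and 0, 0 and 2 of them were well above background on the tumor arrays. Of the stroma and vessel list 3 of 4 names were on the array, and miR-143 and miR-145 were called lower. miR-143 was well above background on no tumor array and at least 121-fold lower than in glands by the array median and at least 15.4-fold with the 75th percentile, and the difference of miR-145, measured on all 3, was -4.85 and -1.87. miR-126-5p was called higher by 3.28, but it was well above background on no tumor array and its gland mean level was -3.29. This call, like that of miR-32, thus sets a tumor background reading against a dim gland signal. The part of cell composition and of the dim tumor arrays in the member differences was not tested.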

How the data were processed

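Spot values of 11 arrays were used. Per the file headers the authors deposited, for each array, green and red intensities that the Feature Extraction program (version 9.5.1.1 for tumors, 10.5.1.1 for glands) had background subtracted and dye normalized, with quality calls of 0 or 1 per spot. They also deposited a table of log2 values, which equalled the log2 green intensity minus a constant per array. The array was designed on an earlier miRNA database, and its names were kept.

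Here the array median over 1336 plus-strand mouse spots was subtracted from the log2 green intensity, and the mean over the 4 spots of each miRNA was taken without outlier spots. A miRNA was tested when at least 50% of its spots were well above background on at least 3 arrays of the fit. Strains were compared over 8 arrays and tumors over 11 with limma 3.58.1 in R 4.3.3, with Benjamini-Hochberg adjustment over 261 miRNAs and a threshold of 0.05. The fits were tested on simulated data. The members, lists and tests were chosen with earlier results of these data known. Named were all members, their cluster partners, the 3 miRNAs most like each and the nearest probes. RefSeq sequences were matched for all 7 members. Base edits were counted over the first 27 probe bases. The scalings of the correlations and of the listed miRNAs in tumors were added after seeing the data. Alternatives comprised other scalings, backgrounds, filters, spot summaries, array omissions, the replicate block, an intensity trend and a fit of all 11 arrays. Other tumor models were not analysed here.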

Additional observations from a re-analysis of the deposited data

Results flagged for a closer look

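The red channel was used in no comparison except the ratio of green to red, and what it holds is not given in the sources used here. Signal stood well above background in it for all 7 members. On the 8 gland arrays miR-18, miR-19a, miR-19b, miR-92, miR-25, miR-32 and miR-363 were each well above background in red on 8 of 8, where 0.866% to 3.46% of the negative control spots were. For miR-363 this held with 4 of 4 spots on each gland array, although green was well above background on 3 of them, and the log2 of green over red was -4.87 to -1.26. On the tumor arrays miR-92 and miR-25 were well above background in red on 3 of 3, and the other 5 members on none, where 1.73% of negative control spots were. No group held enough arrays for the test of single outlying arrays.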

How the results depend on the processing

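The number of members called was 1 by the F-test over strains, 1 in Balb/C minus FVB, 1 in FVB129B6 minus FVB, 0 in Balb/C minus FVB129B6 and 5 in either tumor comparison. The deposited table, a floor, keeping outlier spots, the median of spots and an intensity trend left all 6 counts as they were. In the order F-test, Balb/C and FVB129B6 against FVB, the counts were 0, 0 and 2 with the 75th percentile, 3, 1 and 3 with the median of miRNAs detected on all arrays, 2, 0 and 3 after quantile normalization, 6, 6 and 6 without normalization, 3, 3 and 4 with normexp, and 0, 0 and 0 with green over red. They were 0, 0 and 2 with Balb/C replicates 2 and 3 averaged, 0, 0 and 0 with all 11 arrays in the fit, and 1, 1 and 2 with no filter or with detection required on every array. That last filter left miR-25 and miR-92 in the tumor fit and called 0 members in both tumor comparisons, while green over red called 2 against FVB glands. Leaving out 1 array gave 0 to 2 by the F-test, 0 to 2 in Balb/C, 0 to 3 in FVB129B6, 0 to 0 between these strains, and 4 to 7 in either tumor comparison. Of these, the fits without an FVB array leave 1 in that strain and take their spread from the other groups. The replicate numbers did not pair the samples (mean r of residuals 0.044 over 15 pairs with the same number, -0.0221 over 30 others). With the replicate number as a block the counts were 0, 1, 0 and 0 between strains and 5 and 5 in tumors, and miR-25 was -0.68 (adjusted p = 0.0418) in Balb/C and -0.62 (adjusted p = 0.0513) in FVB129B6.

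Of the differences that changed sign, 35 were called under neither setting, and those with a call under 1 or both follow. In Balb/C minus FVB this held without normalization for miR-18 (1.27), miR-19b (1.32), miR-92 (0.95) and miR-25 (0.71), and with normexp for miR-18 (0.83), miR-19b (0.70) and miR-25 (0.17). In FVB129B6 minus FVB it held without normalization for miR-92 (0.87) and miR-25 (0.83) and with normexp for miR-25 (0.091). In tumors minus glands miR-92 became 2.77 with the 75th percentile, 2.33 with the median of miRNAs detected on all arrays and 3.40 after quantile normalization, and miR-25 became 2.28, 1.84 and 2.85. Against FVB glands these were 2.72, 2.44 and 3.35 for miR-92 and 2.14, 1.86 and 2.66 for miR-25. Green over red turned miR-25 to 1.79 and 1.69, miR-19a to 0.37 and 0.67, and, against FVB glands, miR-19b to 0.30. miR-32 became -0.87 after quantile normalization, -0.44 without normalization and -0.92 with green over red, and -0.77 and -0.62 against FVB glands by the first and last of these. The cause was not tested.

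Over all 261 miRNAs the split of tumor calls into higher and lower was 99 and 137, and 172 and 70 with the 75th percentile, 161 and 76 with the median of miRNAs detected on all arrays and 59 and 173 without normalization. In Balb/C minus FVB it was 15 and 84, and 31 and 16 with the 75th percentile. In FVB129B6 minus FVB it was 21 and 82, and 40 and 43. The total called by the F-test was 120, and 76 with the 75th percentile or quantile normalization, 60 with green over red and 195 with no filter. In Balb/C minus FVB it was 99, and 54 after quantile normalization, 151 without normalization, 65 with green over red or all 11 arrays in the fit and 178 with no filter. In FVB129B6 minus FVB it was 103, and 179 without normalization, 39 with green over red and 191 with no filter. Between these strains it was 9, and 0 to 17 over the alternatives. Detection required on every array left 13 calls of 236 in tumors minus glands and 12 of 230 against FVB glands, with 15 miRNAs tested. Of 840 recomputed member differences, 736 kept their direction or stayed uncalled, 33 lost and 39 gained a call and 32 changed sign with a call under 1 or both settings. The dim tumor arrays give only upper limits for the levels of miR-18, miR-19a and, on 2 of 3 arrays, miR-19b. The folds set from these limits for miR-18 and miR-19a depended on the scaling and were lost under some. Levels of miR-32 and miR-363 in tumors are left unmeasured.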
